A study of Mus musculus with 12 samples.

Results

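This report describes 9 transcription factors of hepatocyte identity, *Hnf4a*, *Foxa1*, *Foxa2*, *Foxa3*, *Cebpa*, *Cebpb*, *Onecut1*, *Nr5a2* and *Prox1*, in the livers of mice without *Maf1*, the repressor of RNA polymerase III. The members were taken by gene symbol, and all 9 were found among the 13304 genes of the liver RNA-seq table. Total RNA was sequenced from 7 wild-type (WT) livers and 5 *Maf1*-/- livers (labelled Maf1 KO), with 1 library per mouse. All mice were C57Bl/6J on chow, 12 to 14 weeks old, fasted overnight and then given food again for 4 h. The knockout is of the whole animal, and the libraries are of whole perfused liver, so fewer cells of a type and less RNA per cell cannot be told apart. The comparison of the genotypes asks whether transcripts of RNA polymerase II, here those of the factors that define the hepatocyte, differ when *Maf1* is absent.

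Hepatocytes keep their identity through a small network of transcription factors that bind each other's promoters as well as the genes of liver metabolism. HNF4α, a nuclear receptor, stands at its centre, the FOXA proteins open chromatin as pioneer factors, and the C/EBP, ONECUT and NR5A proteins act with them at shared enhancers. In the liver the network drives the synthesis of plasma proteins, bile acids, glucose and urea.

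*Maf1* was read 254 to 534 times in the WT libraries and 5 to 52 times in the *Maf1*-/- libraries, which accords with every label. The libraries hold 35003720 to 55787438 reads in the listed genes for WT and 34709661 to 41931441 for *Maf1*-/-. Values are log2 counts per scaled library size (log2 CPM) and are not divided by gene length. GC-rich genes ran lower in the *Maf1*-/- libraries, whose slope on GC content was -0.54 to 0.08 log2 units per 10 points of GC, while 6 WT libraries had slopes of 0.14 to 0.35. The library WT 2 had a slope of -0.57 and so stood apart from its group, and the values of the members are therefore given with and without it. A replicate is 1 mouse, and a gene passed where limma gave an adjusted p under 0.01 together with a log2 fold change beyond 0.5 in either direction.

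No member passed in the 12 libraries. Of all genes 0.015% passed, a total of 2 genes, of which *Maf1* was 1. At an unadjusted p under 0.05 in limma 3 members had a lower mean in *Maf1*-/- liver, *Onecut1*, *Cebpb* and *Cebpa*, against 13.2% of all genes, and 0 members had a higher mean, against 9.9% of all genes. The median log2 fold change of the 9 members was -0.28, beside -0.02 over all genes. The means of 7 members were lower and those of *Nr5a2* and *Prox1* were higher. With the trends on GC content and exon length taken out of each library, the members had a median of 0.049, beside 0.01 over all genes, and 0 members had an unadjusted p under 0.05, against 17.7% of the genes tested.

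**Figure D1:**
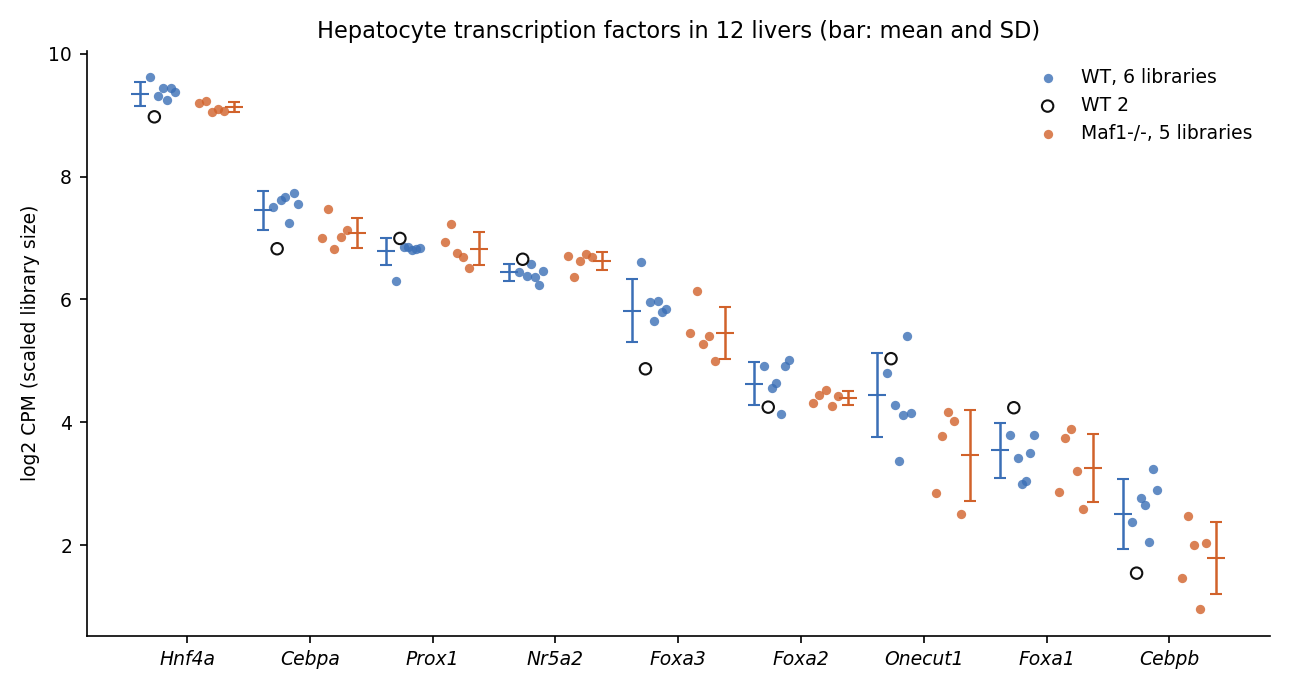
Log2 CPM (scaled library size) of the 9 factors on the y axis, with 1 point per library, WT in blue, *Maf1*-/- in orange and WT 2 as an open ring, and bars for the group mean with SD. The points of the groups overlap for each factor, and WT 2 is the lowest WT library for *Hnf4a*, *Cebpa*, *Foxa3* and *Cebpb*.

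Promoter sequences of 6 start sites are shown because both of *Hnf4a* hold letters known to be bound by factors of the network and the other 4 span the range of GC content over which the members differ. They run from 250 bases before to 50 bases after a RefSeq start site (build GRCm38.p6), in the direction of the gene, and RefSeq gave 14 such windows for the 9 members. Capitals mark the motifs found on either strand, and the text after the sequences names them.
*Hnf4a* start site 1 (chr2:163506607-163506906, + strand): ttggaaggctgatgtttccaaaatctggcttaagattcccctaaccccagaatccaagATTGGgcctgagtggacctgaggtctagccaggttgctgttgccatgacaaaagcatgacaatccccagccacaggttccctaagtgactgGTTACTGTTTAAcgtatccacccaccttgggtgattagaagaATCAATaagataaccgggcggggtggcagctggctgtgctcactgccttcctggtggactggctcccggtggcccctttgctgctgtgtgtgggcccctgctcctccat
*Hnf4a* start site 2 (chr2:163546905-163547204, + strand): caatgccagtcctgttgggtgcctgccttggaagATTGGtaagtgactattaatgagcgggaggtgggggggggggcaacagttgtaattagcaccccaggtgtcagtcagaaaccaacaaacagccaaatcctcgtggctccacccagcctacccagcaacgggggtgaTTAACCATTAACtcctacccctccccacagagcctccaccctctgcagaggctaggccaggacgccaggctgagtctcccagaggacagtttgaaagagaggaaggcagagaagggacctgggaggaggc
*Cebpa* (chr7:35119043-35119342, + strand): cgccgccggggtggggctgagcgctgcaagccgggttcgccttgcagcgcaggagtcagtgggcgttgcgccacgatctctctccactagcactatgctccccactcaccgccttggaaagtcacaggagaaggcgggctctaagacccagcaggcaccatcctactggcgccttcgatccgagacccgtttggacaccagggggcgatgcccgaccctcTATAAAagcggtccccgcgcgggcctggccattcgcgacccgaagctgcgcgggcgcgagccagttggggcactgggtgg
*Cebpb* (chr2:167688665-167688964, + strand): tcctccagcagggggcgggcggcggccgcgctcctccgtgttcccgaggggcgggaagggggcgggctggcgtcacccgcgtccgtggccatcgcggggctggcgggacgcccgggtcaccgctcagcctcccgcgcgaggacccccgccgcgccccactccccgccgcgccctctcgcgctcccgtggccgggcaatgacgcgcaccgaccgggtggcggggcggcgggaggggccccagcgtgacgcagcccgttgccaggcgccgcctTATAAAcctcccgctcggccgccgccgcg
*Onecut1* (chr9:74861671-74861970, + strand): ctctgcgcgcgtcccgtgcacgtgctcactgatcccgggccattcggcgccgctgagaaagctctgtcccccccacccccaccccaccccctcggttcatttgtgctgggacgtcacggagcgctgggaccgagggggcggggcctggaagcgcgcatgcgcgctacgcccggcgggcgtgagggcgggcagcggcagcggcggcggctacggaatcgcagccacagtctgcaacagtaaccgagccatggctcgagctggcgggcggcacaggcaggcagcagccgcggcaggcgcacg
*Nr5a2* start site 1 (chr1:136960399-136960698, - strand): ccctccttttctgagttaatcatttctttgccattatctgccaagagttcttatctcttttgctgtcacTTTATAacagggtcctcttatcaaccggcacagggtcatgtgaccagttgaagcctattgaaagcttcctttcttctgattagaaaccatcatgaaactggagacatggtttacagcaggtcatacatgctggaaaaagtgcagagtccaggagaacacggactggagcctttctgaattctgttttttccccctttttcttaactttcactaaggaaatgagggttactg

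Both promoters of *Hnf4a* held an HNF1 motif, searched as GTTA and TTAA on either side of 4 bases of which the second is T, letters that were chosen after these promoters had been read. It lay at -101 to -90 of the upstream start site, as GTTACTGTTTAA, and at -80 to -69 of the downstream one, as TTAACCATTAAC on the other strand. Of 32851 promoter windows of all genes 0.314% held it. The ONECUT motif ATCAAT lay at -59 to -54 of the upstream *Hnf4a* start site and, on the other strand, in 1 of the 3 windows of *Foxa2*, against 7.54% of all windows. A FOXA motif, TGTTTAC or TGTTTGC, was in 2 of the 14 member windows, those of *Foxa1* and of the downstream *Prox1* start site, and in 8.48% of all windows. The C/EBP motif TTGCNNAA was found in the downstream window of *Nr5a2* and in 10.8% of all windows, the HNF4 motif CAAAGNCCA in 1 window of *Foxa2* and in 1.98%, and the NR5A2 motif CAAGGNCA in 0 member windows and in 6.71%. The letters TATAAA stood in 6 of the 14 member windows and in 13.6% of all windows, for *Cebpa* at -30 to -25, and CCAAT stood in 7 and in 37.4%. The windows differed widely in GC content, from 42.0% at the upstream start of *Nr5a2* and 54.0% and 57.3% at *Hnf4a* to 67.3% at *Cebpa*, 73.0% at *Onecut1* and 80.7% at *Cebpb*, around a median of 52.7% over all windows. These matches are of letters only and carry no measurement of binding or of which start site was used in these livers.

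The members also differ in level. Divided by exon length, *Hnf4a* was the most abundant in WT liver at 7.01 ± 0.20 log2 CPM per kb (SD, n = 7), and *Cebpa* followed at 6.05 ± 0.32. *Hnf4a* lay above 97.3% of the genes with a known length, and *Foxa1* and *Cebpb*, at 1.87 ± 0.44 and 1.92 ± 0.57, lay near the middle of all genes (percentiles 47.9 and 48.7). The level per kb of *Hnf4a* in WT was 35.4 times that of *Foxa1*. *Foxa3* (4.79 ± 0.52), *Prox1* (4.73 ± 0.22) and *Nr5a2* (4.50 ± 0.14) formed a middle group, and *Foxa2* (3.39 ± 0.34) and *Onecut1* (3.37 ± 0.68) came after them. Some neighbours in this order had a mean difference smaller than its SD. They were *Foxa3* and *Prox1* (*Foxa3* higher in 4 of 7 WT libraries), *Foxa2* and *Onecut1* (*Foxa2* higher in 3 of 7) and *Cebpb* and *Foxa1* (*Cebpb* higher in 5 of 7). *Prox1* and *Nr5a2* were at this limit, with a difference of 0.229 ± 0.234 and *Prox1* higher in 6 of 7. In *Maf1*-/- liver *Hnf4a* and *Cebpa* were again the 2 highest, at 6.80 ± 0.08 and 5.69 ± 0.24 (SD, n = 5), and *Foxa2* was above *Onecut1* in 5 of 5 libraries, at 3.15 ± 0.11 and 2.38 ± 0.74.

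*Hnf4a* encodes the nuclear receptor that holds the hepatocyte program in the adult liver (ENSMUSG00000017950, GRCm38 chr2:163506808-163572910, + strand). Its WT values ran from 8.97 in WT 2 over a median of 9.37 to 9.62. The *Maf1*-/- libraries 1 to 5 had 9.19, 9.23, 9.05, 9.10 and 9.07. All 5 were below the WT median and above WT 2, and the other 6 WT libraries lay above all of them. The means were 9.34 ± 0.20 and 9.13 ± 0.08 (SD), a log2 fold change of -0.21 ± 0.11 (SE; 95% interval -0.45 to 0.02) with an adjusted p of 0.239 in limma, and an exact permutation p of 0.0543 over all 792 divisions (two-sided). Without WT 2 the groups did not overlap, as for 12.6% of all genes, and the log2 fold change was -0.28 with an adjusted p of 0.0332 in limma, short of the cut-offs. With GC content and length adjusted the sign turned, to 0.049 (95% interval -0.14 to 0.23), and without WT 2 as well it was 0.070. The antisense gene *Hnf4aos* overlaps it, with 96 to 371 reads per library against 18600 to 40058. In the 12 libraries 0 members had groups apart, against 0.586% of all genes.

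*Nr5a2* encodes LRH-1, a nuclear receptor for the genes of bile acid synthesis (ENSMUSG00000026398, chr1:136842571-136960448, - strand). It was the steadiest member, with a residual SD of 0.14 that lay under those of all but 9.22% of genes. WT values ran from 6.23 over a median of 6.44 to 6.65 in WT 2. The *Maf1*-/- values were 6.71, 6.37, 6.63, 6.74 and 6.69, so that 4 of 5 lay above the WT median and *Maf1*-/- 2 lay among the lowest WT libraries. The log2 fold change was 0.18 ± 0.10 (SE; 95% interval -0.03 to 0.40; limma, adjusted p = 0.26), with an exact permutation p of 0.0556. Without WT 2 it was 0.22 (limma, adjusted p = 0.0949), and with GC content and length adjusted 0.03.

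*Prox1* encodes a homeobox protein that represses the activity of both HNF4α and LRH-1 in hepatocytes and that also marks the endothelium of lymph vessels (ENSMUSG00000010175, chr1:190118035-190170714, - strand). WT values ran from 6.30 in WT 1 over a median of 6.84 to 6.99 in WT 2. The *Maf1*-/- values were 6.94, 7.22, 6.76, 6.69 and 6.51 and lay on both sides of the WT median. The log2 fold change was 0.04 ± 0.14 (SE; 95% interval -0.26 to 0.35; limma, adjusted p = 0.852), an interval that leaves room for a level between 0.832 and 1.28 times that of WT. Its sign turned without WT 1 (-0.036), without *Maf1*-/- 2 (-0.054) and with library weights (-0.035), and the value was 0.080 without WT 2 and 0.15 with GC content and length adjusted. *Prox1* had 3158 to 5755 reads per library, and of the endothelial and lymphatic markers *Flt4* had 519 to 2027, *Lyve1* 574 to 1561 and *Pdpn* 7 to 30. The list does not separate lymph vessels from other endothelium. The part of lymph vessel cells in the value of *Prox1* was not tested. The antisense gene *Prox1os*, which overlaps it, had 130 to 278.

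Within a library the value of *Prox1* minus that of *Hnf4a* was -2.56 ± 0.40 log2 units (SD) in WT and -2.30 ± 0.20 in *Maf1*-/- liver, not divided by length. *Prox1* minus *Nr5a2* was 0.34 ± 0.23 in WT and 0.20 ± 0.40 in *Maf1*-/- liver. The groups overlapped for both differences, which do not move with the scaling of a library.

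The FOXA genes encode forkhead proteins that bind closed chromatin. *Foxa1* and *Foxa2* are together required for the liver to form in the mouse, and *Foxa3* is the last of the family to be expressed in the endoderm of the mouse. In these livers *Foxa3* had the highest and *Foxa1* the lowest level of the family per kb in both genotypes. In limma, all 3 intervals of the difference included 0.

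*Foxa1* (ENSMUSG00000035451, chr12:57540631-57546121, - strand) ran in WT from 2.99 over a median of 3.51 to 4.24 in WT 2. Its *Maf1*-/- values were 2.86, 3.75, 3.89, 3.20 and 2.59. *Maf1*-/- 1 and 5 were below all WT libraries, and 2 and 3 were above the WT median. The log2 fold change of -0.28 ± 0.26 (SE; 95% interval -0.86 to 0.29) had an adjusted p of 0.483 in limma. It was -0.17 without WT 2 and ran from -0.44 to -0.12 as each library was left out, the last of these without *Maf1*-/- 5. It was -0.035 with GC content and length adjusted, and without WT 2 as well its sign turned, to 0.16.

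*Foxa2* (ENSMUSG00000037025, chr2:148042877-148046969, - strand) ran in WT from 4.13 over a median of 4.64 to 5.02. Its *Maf1*-/- values were 4.31, 4.45, 4.53, 4.26 and 4.44. These 5 lay close together, with an SD of 0.11 beside 0.34 in WT, all below the WT median, while 5 WT libraries were above them and 2 below. The log2 fold change was -0.24 ± 0.16 (SE; limma, adjusted p = 0.341), and it was -0.30 without WT 2. With GC content and length adjusted the sign turned, to 0.14 (95% interval -0.19 to 0.47), or 0.19 without WT 2 as well, and the SD was 0.25 in *Maf1*-/- and 0.29 in WT.

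*Foxa3* (ENSMUSG00000040891, chr7:19013284-19023538, - strand) ran in WT from 4.87 in WT 2 over a median of 5.84 to 6.61 in WT 1, a wide span for a gene read 1198 to 4996 times there. Its *Maf1*-/- values were 5.45, 6.13, 5.27, 5.41 and 5.00, of which 4 were below the WT median. The log2 fold change was -0.36 ± 0.26 (SE; 95% interval -0.92 to 0.20; limma, adjusted p = 0.368), and it was -0.52 without WT 2 (limma, adjusted p = 0.0778) but -0.23 without WT 1. It was -0.11 with GC content and length adjusted, and its sign turned, to 0.098, where limma had the GC slope of each library as a covariate. Within a library *Foxa1* minus *Foxa3* was -2.27 ± 0.78 log2 units in WT and -2.20 ± 0.48 in *Maf1*-/- liver. *Foxa2* minus *Foxa3* was -1.19 ± 0.47 and -1.06 ± 0.43, and the groups overlapped for both.

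The C/EBP genes *Cebpa* and *Cebpb* have no introns and encode bZIP proteins. C/EBPα drives the genes of gluconeogenesis and of ammonia removal in the resting hepatocyte, and C/EBPβ takes part in fasting, the acute phase and regeneration. Both had a lower mean in *Maf1*-/- liver at an unadjusted p under 0.05, and neither passed after adjustment in the 12 libraries. Both are among the most GC-rich genes of the table, with 62.6% GC in exons for *Cebpa*, more than 99.2% of genes, and 67.2% for *Cebpb*, more than 99.9%.

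*Cebpa* (ENSMUSG00000034957, chr7:35119293-35121928, + strand) ran in WT from 6.83 in WT 2 over a median of 7.55 to 7.74. Its *Maf1*-/- values were 7.00, 7.47, 6.82, 7.02 and 7.13. All 5 lay below the WT median, and 5 WT libraries lay above all 5. The level in *Maf1*-/- liver was 0.778-fold that in WT (95% interval 0.607 to 0.996), a log2 fold change of -0.36 ± 0.16 (SE) with an unadjusted p of 0.0471 and an adjusted p of 0.213 in limma, and the exact permutation p was 0.0619. Without WT 2 the log2 fold change was -0.47 (limma, adjusted p = 0.0204). With GC content and length adjusted its sign turned, to 0.29 (95% interval -0.06 to 0.64; limma, adjusted p = 0.346), and without WT 2 as well it was 0.39 (limma, adjusted p = 0.0796). The adjusted values of *Cebpa* ran against the GC slope of the libraries, at r = -0.91 over 12 libraries.

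*Cebpb* (ENSMUSG00000056501, chr2:167688915-167690418, + strand) was the member with the fewest reads, 71 to 371 per library, and counting alone gives an SD of 0.17 log2 units at the fewest. WT values ran from 1.55 in WT 2 over a median of 2.66 to 3.25. Its *Maf1*-/- values were 1.47, 2.47, 2.01, 0.96 and 2.03, all below the WT median, and 4 WT libraries lay above all of them. The level in *Maf1*-/- liver was 0.609-fold that in WT (95% interval 0.385 to 0.965), a log2 fold change of -0.71 ± 0.31 (SE; limma, adjusted p = 0.206; exact permutation p = 0.0644). Without WT 2 it was -0.87 (limma, adjusted p = 0.0329), and with GC content and length adjusted 0.079 (95% interval -0.43 to 0.58). The gene overlaps *Tmem189* on the other strand, which had 171 to 539 reads, and whether the counting used strand is not given in the sources used here. Within a library *Cebpb* minus *Cebpa* was -4.94 ± 0.29 log2 units in WT and -5.30 ± 0.50 in *Maf1*-/- liver, and the groups overlapped.

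*Onecut1* encodes HNF6, which acts at the promoters of *Hnf4a* and *Foxa2* and in the mouse is needed for bile ducts to form (ENSMUSG00000043013, chr9:74861921-74891781, + strand). It had the lowest fold change of the 9 and also the widest spread, with a residual SD of 0.71 above that of 93.5% of genes. WT values ran from 3.36 in WT 4 over a median of 4.28 to 5.41 in WT 6. Its *Maf1*-/- values were 2.85, 3.78, 4.17, 4.03 and 2.51. All 5 lay below the WT median, *Maf1*-/- 1 and 5 lay below every WT library, and 4 WT libraries lay above all 5. The level in *Maf1*-/- liver was 0.505-fold that in WT (95% interval 0.288 to 0.884), a log2 fold change of -0.99 ± 0.37 (SE) with an unadjusted p of 0.0207 and an adjusted p of 0.196 in limma, and an exact permutation p of 0.0417. Of the 9 members 1, *Onecut1*, had an exact permutation p under 0.05. Counting gives an SD of 0.10 log2 units at its fewest reads, 196, and the spread between mice cannot be told apart from that of library preparation. WT 2 was the second highest WT library, at 5.04, and without it the log2 fold change was -0.89 (limma, adjusted p = 0.0982). With GC content and length adjusted the value was -0.47 (95% interval -1.52 to 0.57).

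*Onecut1* is also active in cells of the bile duct. Of 7 cholangiocyte markers measured 6 had a lower mean in *Maf1*-/- liver, as did 7035 of all 13304 genes. Their median log2 fold change was -0.47, or -0.31 with GC content and length adjusted. *Sox9* among them stood at -0.67 (limma, unadjusted p = 0.0282, adjusted p = 0.198). Some rested on few reads per library, *Cftr* on 3 to 53 and *Krt19* on 15 to 84. The summed level of the 7 markers ran from 5.52 to 6.67 log2 CPM in WT and from 4.97 to 6.62 in *Maf1*-/- liver. The part of this in the value of *Onecut1* was not tested. Within a library *Onecut1* minus *Hnf4a* was -4.89 ± 0.74 log2 units in WT and -5.66 ± 0.76 in *Maf1*-/- liver, with groups that overlapped.

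**Figure D2:**
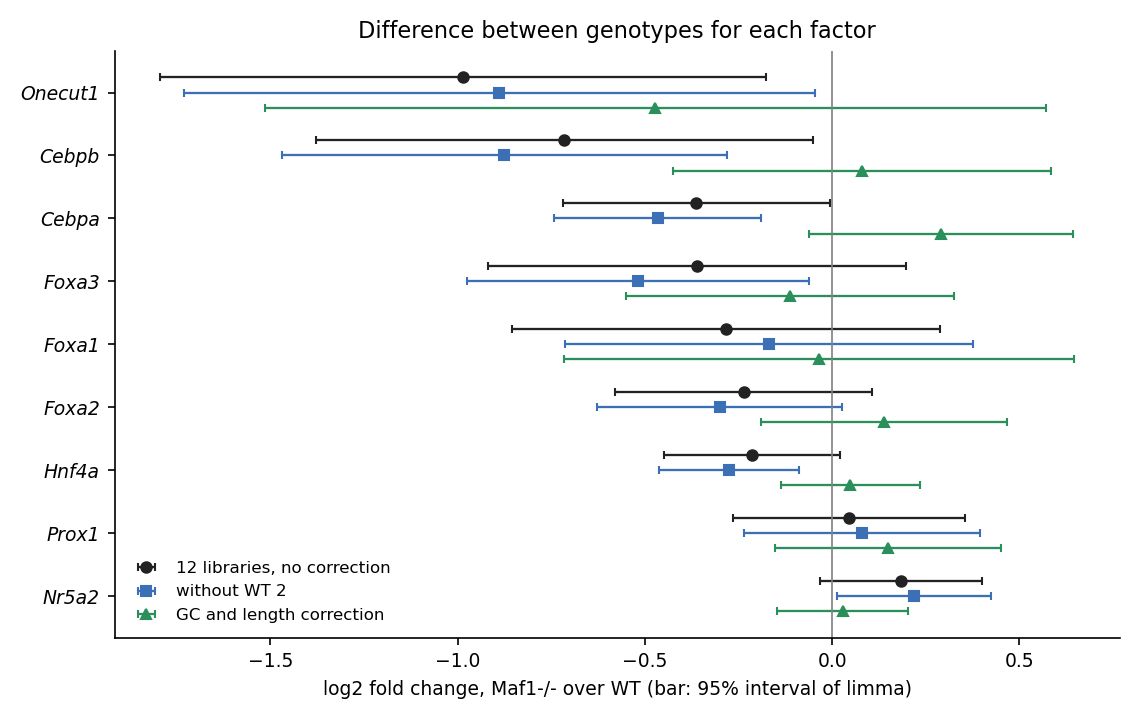
Log2 fold change of *Maf1*-/- over WT (x axis) for each factor with the 95% interval of limma, from the 12 libraries (black), without WT 2 (blue) and with GC content and length adjusted (green). In black 3 intervals lie below 0, those of *Onecut1*, *Cebpb* and *Cebpa*, and in green all 9 include 0.

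Across the settings tried 0 to 2 members passed, and 0 to 2104 genes. Without WT 2, 0 members and 6.79% of all genes passed, and 5 members had a lower mean at an unadjusted p under 0.05 in limma, against 25.8% of all genes. With 1 singular vector of the residuals as a factor of unwanted variation 0 members and 8.09% of genes passed. With library weights 2 members passed, *Cebpa* at a log2 fold change of -0.53 (limma, adjusted p = 0.00527) and *Cebpb* at -0.96 (limma, adjusted p = 0.00925), and 15.2% of all genes. With 1 factor and without WT 2, a setting chosen after seeing the data, *Cebpb* was the 1 member that passed, at -0.87 (limma, adjusted p = 0.00465), and 15.8% of all genes passed.

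The fold changes of the members followed the GC content of their exons. *Nr5a2*, the poorest in GC at 43.9%, had the highest fold change, *Prox1* at 51.2% came next, and the 7 members at 54.2% to 67.2% were the 7 with a lower mean. Over the 9 members Pearson's r between GC content and log2 fold change was -0.79 and Spearman's rho -0.90, and over 12482 genes rho was -0.69, values that share the same 12 libraries. Among 10 bins of genes by GC content the median fold change (log2) stood at 0.14 in the bin of *Nr5a2*, -0.25 in that of *Hnf4a*, *Foxa1* and *Foxa3*, and -0.53 in the bin highest in GC, which held *Cebpa*, *Cebpb* and *Onecut1*. Set against its own bin, *Cebpa* was 0.17 above the median, *Cebpb* 0.18 below and *Onecut1* 0.45 below, at percentile 8.81 of the bin, and the other 6 were within 0.13 of theirs. The highest bin spans 57.4% to 75.7% GC around a median of 59.1%, and *Cebpa* at 62.6% and *Cebpb* at 67.2% lie above that median. The part of the GC trend in the members' values was not tested beyond these values and the adjustment.

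**Figure D3:**
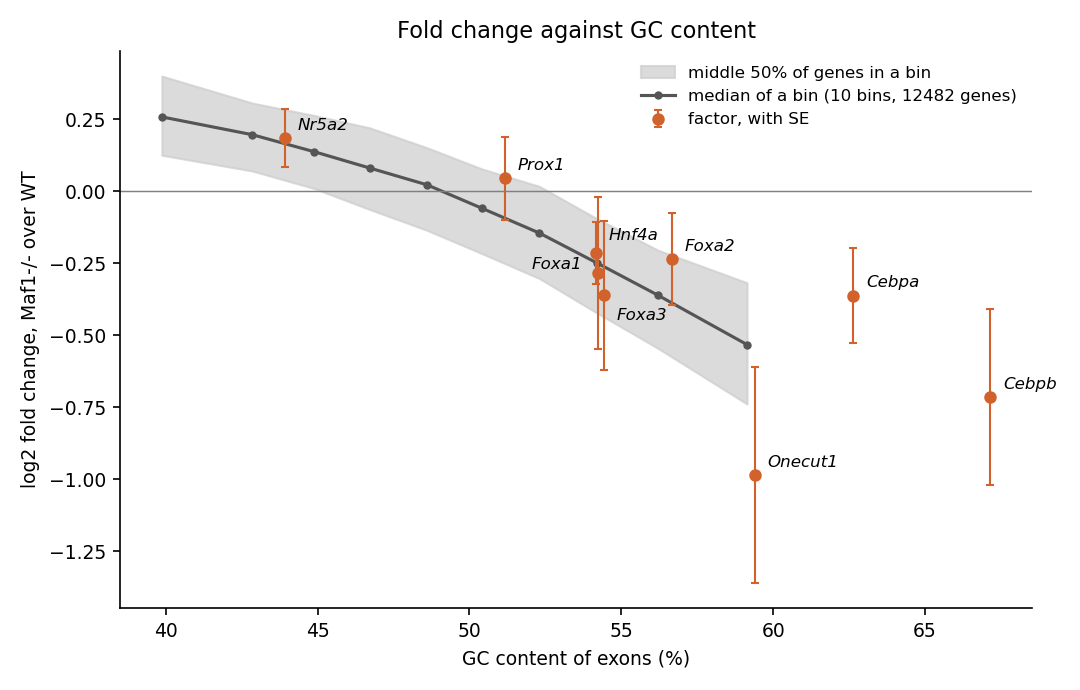
Log2 fold change of *Maf1*-/- over WT (y axis) against the GC content of exons in percent (x axis). The line joins the medians of 10 bins of 12482 genes placed at the median GC of each bin, the band holds the middle 50% of each bin, and points are the factors with SE. *Onecut1* lies below the middle 50% of its bin, at percentile 8.81, and the other 8 lie within the middle 50% of their bins. The band ends at 59.1% GC, the median of the highest bin, and *Onecut1*, *Cebpa* and *Cebpb* lie to the right of it.

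Across the 12 libraries the members fell into sets that varied together. *Cebpa* ran with *Cebpb* (r = 0.86), with *Hnf4a* (r = 0.84) and with *Foxa3* (r = 0.69), and *Nr5a2* ran against these, at r = -0.81 with *Cebpb* and -0.76 with *Cebpa*. *Foxa1* and *Onecut1* formed a pair of their own (r = 0.75), and *Foxa1* had r = 0.0044 with *Hnf4a*. Of the 36 pairs 10 had r above 0.5 and 5 had r below -0.5, with a median of 0.18. These are descriptions over 12 libraries that also share their scaling and their GC trend. The slope of a library on GC content ran with *Cebpa* at r = 0.91, with *Hnf4a* at 0.89, with *Cebpb* at 0.83 and with *Nr5a2* at -0.77, but with *Onecut1* at 0.13 and with *Foxa1* at -0.12. With GC content and length adjusted *Foxa1* and *Onecut1* stood at r = 0.81, *Cebpa* and *Cebpb* at 0.56, and *Hnf4a* and *Foxa3*, which had been at 0.84, at -0.08. The adjusted values ran against the slope for *Cebpa* (r = -0.91), *Hnf4a* (-0.60), *Foxa2* (-0.53) and *Cebpb* (-0.43), which had run with it before. They were also negative for *Foxa1* (-0.49), *Prox1* (-0.47) and *Onecut1* (-0.38), while *Foxa3* stood at 0.47 and *Nr5a2* at 0.11. Whether the adjustment went past the trend was not tested.

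**Figure D4:**
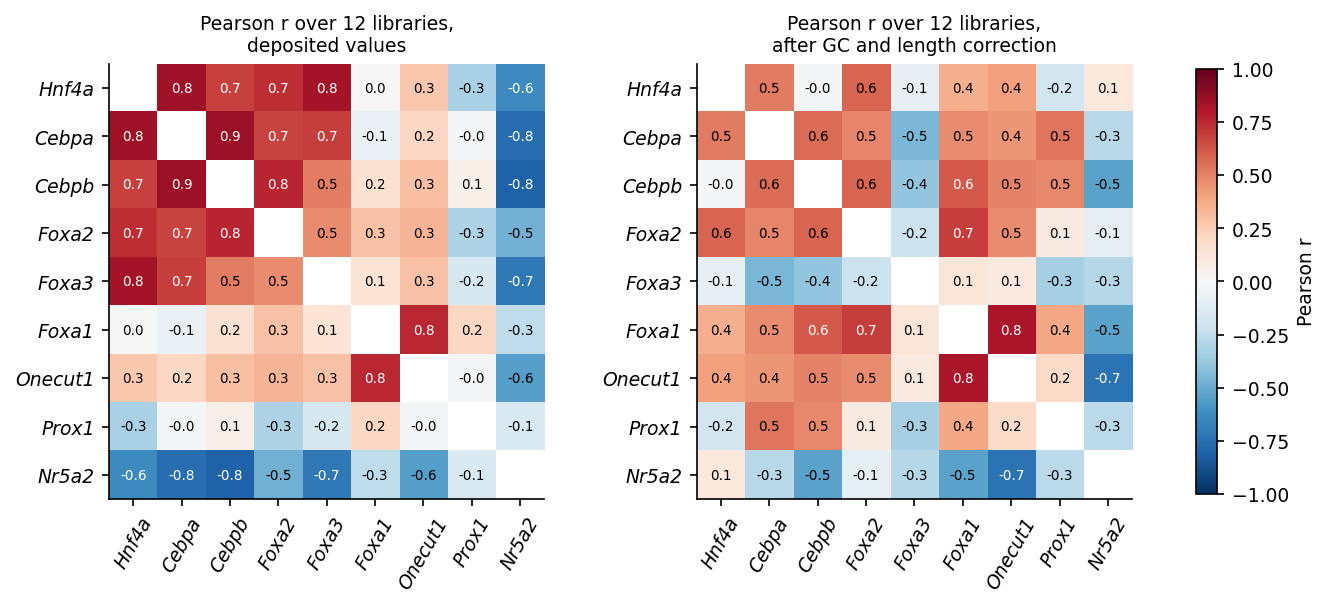
Pearson r between the log2 values of each pair of factors over 12 libraries, for the deposited values (left) and with GC content and length adjusted (right), from blue at -1 to red at 1. *Foxa1* with *Onecut1* is at 0.8 in both panels, while *Hnf4a* with *Foxa3* is at 0.8 on the left and -0.1 on the right.

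The genes whose pattern over the 12 libraries was most like that of a member, by Pearson's r among all 13304 genes, were *Snora78* (0.98) and *Srm* (0.97) for *Cebpa*, *Lsm14b* (0.98) and *Zbtb7a* (0.95) for *Cebpb*, and *Tceb2* and *Nosip* (0.97 each) for *Hnf4a*. For *Foxa3* they were *Actb* (0.96) and *Mavs* (0.95), for *Nr5a2* *Acsm3* and *Pls3* (0.95 each) and for *Prox1* the predicted genes *Gm43379* (0.95) and *Gm38077* (0.94). For *Foxa1* they were *Pxk* (0.88) and *Celf2* (0.83), for *Foxa2* *Hist4h4* (0.87) and *Igsf8* (0.86), and for *Onecut1* *Serpina4-ps1* and *Plcxd2* (0.89 each). *Cebpa* had 424 genes with r above 0.9 and *Hnf4a* 257, whereas *Foxa1*, *Foxa2* and *Onecut1* had 0. No member was among the 2 genes most like another member.

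Of 27 other liver transcription factors 26 were measured, and 0 passed. At an unadjusted p under 0.05 in limma 7 had a lower mean, against 13.2% of all genes, and 2 a higher mean, against 9.9%. The median log2 fold change of the list was -0.15. *Nr0b2* encodes SHP, a repressor that binds LRH-1 and HNF4α, and it had the lowest p of the list, with means of 4.24 ± 0.82 for WT and 2.85 ± 0.48 for *Maf1*-/- libraries, or a log2 fold change of -1.39 (limma, adjusted p = 0.192). *Nr1h4*, the bile acid receptor FXR that induces *Nr0b2*, stood at 0.45 (limma, adjusted p = 0.192). *Gata6*, a factor of the endoderm, stood at 0.39 and *Zhx2*, a repressor of fetal genes in the mouse liver, at -0.86 (limma, adjusted p = 0.192 each). *Nr0b2* stood at -0.94, *Nr1h4* at 0.36, *Gata6* at 0.77 and *Zhx2* at -0.66 with GC content and length adjusted. Without WT 2, 5 of the 26 passed, against 6.79% of all genes. Among the 5 were *Nr0b2* (limma, adjusted p = 0.00602) and *Nr1h4* (limma, adjusted p = 0.00713).

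Of 16 coactivators and corepressors 0 passed, and 1 had an unadjusted p under 0.05 in limma, against 23.1% of all genes. It was *Cited2*, a partner of the acetyltransferase p300, at a log2 fold change of -0.72 (limma, adjusted p = 0.192). *Smarca4*, the ATPase of the BAF complex, was at -0.50, *Trib1*, which leads C/EBPα to be degraded, at -0.45, and *Ppargc1b* at -0.66, each with an adjusted p of 0.225 to 0.269 in limma. These 3 stood at -0.13, -0.27 and -0.27 with GC content and length adjusted, and *Cited2* at -0.65. *Cited2* passed without WT 2 (limma, adjusted p = 0.00935), and *Smarca4* and *Ppargc1b* passed with 1 residual factor (limma, adjusted p = 0.00314 and 0.00554). In these 2 settings 6.79% and 8.09% of all genes passed. The median of the list was -0.061.

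Among the liver genes that these factors drive, the means were split evenly between the directions. Of 30 target genes 15 had a lower and 15 a higher mean, with a median log2 fold change of 0.01. Of these 30, 0 passed, and 3 had an unadjusted p under 0.05 in limma, against 23.1% of all genes. The targets had a median GC content of 49.2% and the members 54.4%, and with GC content and length adjusted the medians were 0.018 and 0.049. The difference between the lists was not tested. *Cyp7a1*, the rate-limiting enzyme of bile acid synthesis and a target of LRH-1 and HNF4α, had means of 7.31 ± 0.73 for WT and 8.80 ± 0.52 for *Maf1*-/- libraries, or a log2 fold change of 1.49 ± 0.35 (SE; limma, adjusted p = 0.192). *Cyp8b1*, which makes cholic acid, stood at -0.69 and *Cps1*, the entry enzyme of the urea cycle, at 0.58 (limma, adjusted p = 0.192 each), and *Tat*, of tyrosine breakdown, at 0.42 (limma, adjusted p = 0.243). *Cyp7a1* has 39.7% GC in its exons and *Cyp8b1* 54.8%, and with GC content and length adjusted they stood at 1.25 and -0.41. Of the 30, *Cyp7a1* passed without WT 2 (limma, adjusted p = 0.00602), and *Cyp7a1* and *Cyp8b1* passed with 1 residual factor. All genes passed at 6.79% and 8.09% in these 2 settings.

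Of 15 fetal liver and biliary genes 12 were measured and 0 passed, with a median log2 fold change of 0.02. Besides *Sox9*, *Gpc3*, a fetal proteoglycan, stood at 0.60, the duct keratin *Krt19* at -0.68 and *Snai2* at 0.25, each with an adjusted p of 0.217 to 0.329 in limma. *Sox9* stood at -0.65, *Gpc3* at 0.48, *Krt19* at -0.31 and *Snai2* at 0.044 with GC content and length adjusted. *Krt19* rested on 15 to 84 reads per library.

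**Figure D5:**
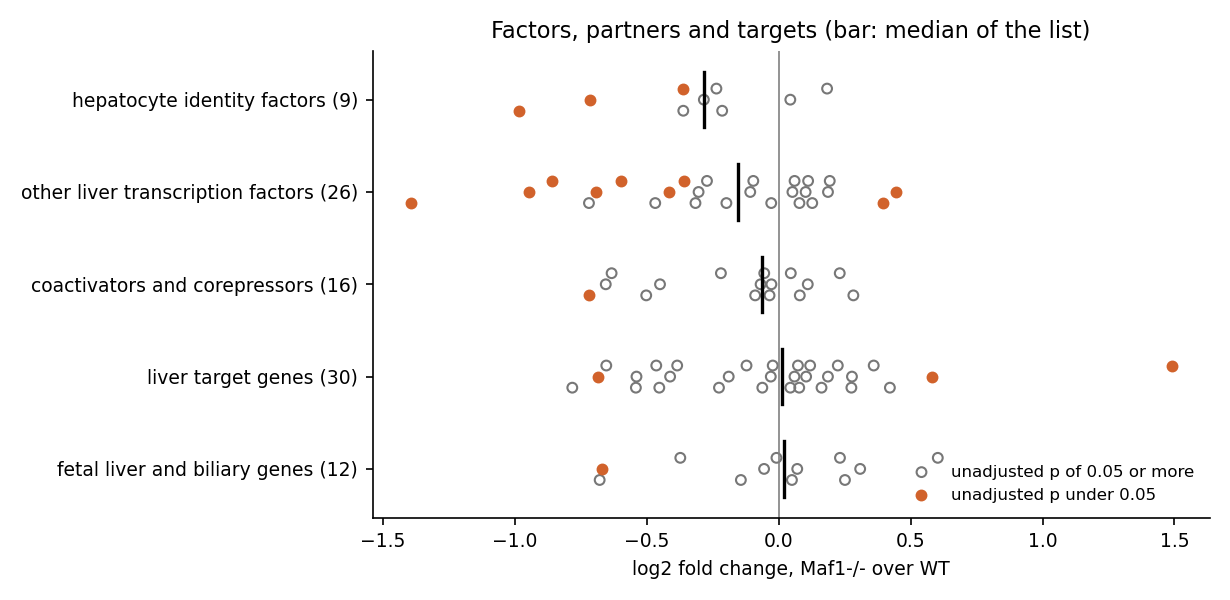
Log2 fold change of *Maf1*-/- over WT (x axis) for the genes of 5 lists, with the number measured in brackets and 1 point per gene, filled where the unadjusted p was under 0.05 in limma and with a bar at the median of the list. The medians lie at -0.28 for the hepatocyte identity factors, -0.15 for other liver transcription factors, -0.06 for coactivators and corepressors, 0.01 for liver target genes and 0.02 for fetal liver and biliary genes.

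Markers of the cell types were compared as lists. The summed level of 9 hepatocyte markers was 16.67 to 17.07 log2 CPM in WT and 16.84 to 17.27 in *Maf1*-/- liver, with *Alb* at 2797014 reads or more in every library, and that of the 9 members was 9.89 to 10.35 and 9.88 to 10.15. Kupffer cell markers summed to 8.26 to 9.12 in WT and 8.34 to 8.88 in *Maf1*-/- liver, endothelial markers to 8.73 to 9.01 and 8.73 to 8.99, and stellate cell markers to 8.94 to 9.46 and 9.20 to 9.87. In limma 0 genes of the 6 marker lists passed in the 12 libraries. *Cyp3a11* passed without WT 2 (limma, adjusted p = 0.00849), against 6.79% of all genes. *Cyp3a11*, *Dcn* and *Eng* passed with 1 residual factor, against 8.09% of all genes. In the 12 libraries 23.1% of the 13304 genes fell below an unadjusted p of 0.05 in limma. Of the markers, the hepatocyte genes *Cyp3a11* (log2 fold change 1.08) and *Cps1* fell below it. So did *Dcn* (0.62) and *Col3a1* (0.28) of stellate cells, *Tek* (0.20) and *Flt4* (-0.49) of the endothelium, and the duct gene *Sox9*. The others were *Ms4a1* (-0.73) of B cells and *Alas2* (-0.31) of red cells, while 0 of 10 Kupffer cell markers did so. The part of the cell makeup in the members' values was not tested.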

How the data were processed

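Liver RNA of 7 WT and 5 *Maf1*-/- mice was sequenced from stranded total RNA libraries without ribosomal and globin RNA. The authors used cutadapt 1.8 for trimming, STAR 2.5.2b for alignment to GRCm38, HTSeq 0.6.1 for counting per gene and edgeR 3.14.0 (TMM) for scaling. The deposited values are on a log2 scale. Undone, 100% of them gave a whole number of reads, to within 0.001, after an offset of 0.5 and the scaled library size, so they are log2 CPM although their label reads RPKM, and neither length nor GC content was corrected for. Each library rests on 34709661 to 55787438 reads, and a member on 71 to 40058. Whether strand was used in counting is not given in the sources used here.

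Genotypes were compared with limma 3.58.1 (R 4.3.3) without covariates or trend, and p was adjusted by Benjamini and Hochberg over 13304 genes. Genes passed with an adjusted p under 0.01 where the log2 fold change also exceeded 0.5 in either direction, the cut-offs of the study, whose factors of unwanted variation are of unstated kind and number and were replaced by singular vectors of the residuals in an alternative. For each of the 9 members an exact permutation test of the means went over 792 divisions (two-sided, smallest p 0.00126). With 1 library per mouse, p-values measure the spread between mice and that of library preparation together. In an alternative, loess curves (span 0.4) against GC content and then exon length were subtracted for the 12482 genes (93.8%) with both, which were taken from an NCBIM37 annotation joined by gene identifier. The fit was tested on simulated data, where 59% of changes of 1 log2 unit and 88% of changes of 2 were found, with 1 false call of 13304 genes. The simulated noise was independent between genes and libraries. It held no GC trend and no library like WT 2, so these rates need not hold for the real libraries. Python 3.11.15 with scipy 1.17.1 was used for the rest, and promoters were searched for motifs in a RefSeq table (GRCm38.p6).

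The members and lists were chosen with earlier results of these data known. Genes named are the members, the 2 genes most like each by Pearson's r, up to 4 genes with the smallest p in each other list, and *Maf1*. *Alb*, *Lyve1* and the overlapping genes *Hnf4aos*, *Prox1os* and *Tmem189* were named outside this rule, after their values were seen. In total 25 planned and 2 added settings were tried. The table of pol III scores, with 1 value per group, was not used here.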

Additional observations from a re-analysis of the deposited data

Results flagged for a closer look

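Each of the 9 members was examined in both genotypes for a library far from the rest of its group, 18 groups in all, of which chance flags about 1 in 20, and 2 were found. *Nr5a2* was at 6.37 in *Maf1*-/- 2, while the next *Maf1*-/- library was at 6.63. Without that library its log2 fold change was 0.25 (limma, unadjusted p = 0.025, adjusted p = 0.112), beside 0.18 with it. *Prox1* was at 6.30 in WT 1, while the next WT library was at 6.81, and without it the log2 fold change was -0.036 (limma, adjusted p = 0.859), beside 0.04 with it.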

How the results depend on the processing

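The count of genes that passed was 2 in the 12 libraries, 1076 with 1 residual factor, 1276 with 2, 2019 with library weights, 1 with the GC and length correction, 90 with that and 1 residual factor, 1 with the GC slope as covariate, and 2 to 904 without each replicate, the 904 without WT 2. Members passing numbered 0, except for 2 with library weights and, among settings added after seeing the data, 1 with 1 residual factor and without the WT 2 library (2104 genes). Members with an unadjusted p under 0.05 numbered 3, beside 23.1% of all genes. They numbered 5 with 1 factor (41.4% of genes), 2 factors (45.8%) or 1 factor and without WT 2 (50.9%), 6 with weights (50.4%), 0 with the GC and length correction (17.7%), also with 1 factor (28.5%), 1 with the GC slope (5.22%), 1 with the correction and without WT 2 (28.5%), and 0 to 6 without each replicate (12.1% to 43.5%). The replicate block left 1 gene and 0 members passing, with 0 members at an unadjusted p under 0.05 (4.31% of genes), and with the correction 0 genes, 0 members and 0 members. The labels state no pairing of mice. Same-numbered libraries deviated together at r of -0.46 to 0.23, and 0 of the 5 numbers matched best with its own. These deviations also hold the GC trend of each library, so they cannot tell whether the numbers pair mice. Of 243 values of members under alternatives 222 kept their sign. The signs that turned were, with the GC and length correction, those of *Hnf4a* (0.049), *Foxa2* (0.14), *Cebpa* (0.29) and *Cebpb* (0.079), with the replicate block as well 0.026, 0.21, 0.25 and 0.15, and without the WT 2 library as well 0.070, 0.19, 0.39 and 0.18, with *Foxa1* at 0.16. *Foxa3* turned to 0.10 with the GC slope as covariate. *Prox1* turned to -0.035 with library weights and stood at -0.054 to 0.12 without each replicate. *Onecut1* and *Nr5a2* kept their signs in all 27 settings, at -1.29 to -0.21 and 0.01 to 0.28. The cause of these changes was not tested. Depth limits *Cebpb* most, at 71 to 371 reads.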
